A study of Homo sapiens with 3 samples.

Results

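The report covers 8 genes of antimicrobial and mucosal defence (LYZ, PLA2G2A, DEFB1, REG3A, REG4, LCN2, LCN15 and PIGR), taken by their symbols from the 33538 genes counted in single cells of a Caco-2 and HT29 co-culture. Caco-2 and HT29 are human colorectal carcinoma lines, seeded at 9 parts to 1 on Transwell inserts and grown without microbes. Of the 3 libraries, 2 came from untreated control co-cultures and 1 from a co-culture given 1 ng/ml Escherichia coli O111:B4 lipopolysaccharide (LPS) in the apical chamber on day 22 for 24 h, and all were harvested on day 23, then frozen and thawed before capture. The cultures hold no immune, stromal or primary epithelial cells, and the study's methods name 3 inserts taken for libraries, the number of libraries here, without saying whether the cells of each were seeded separately.

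In the intestine, antimicrobial proteins are made by Paneth cells, goblet cells and enterocytes and are released towards the lumen, where they keep bacteria away from the epithelium. LYZ encodes lysozyme, an enzyme that cleaves bacterial peptidoglycan and a marker of Paneth cells. PLA2G2A is a secreted phospholipase that attacks bacterial membranes, DEFB1 is a beta-defensin that many epithelia make without stimulation, and REG3A and REG4 are C-type lectins, of which REG3A binds peptidoglycan. LCN2, or lipocalin 2, withholds iron from bacteria by binding their siderophores, LCN15 is a less studied lipocalin, and PIGR is the receptor that carries polymeric IgA across the epithelium.

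The bases before the start of LCN2, LCN15 and PLA2G2A are shown because these genes differed between the lines, and LCN2 and LCN15 also differed among HT29-like cells. They are RefSeq promoter sequence (GRCh38.p14), 5′ to 3′ on the gene's strand, cut to the stretch outside every untranslated region annotated in GENCODE. The start is that of the RefSeq sequence, and for each of these genes it lies inside the GENCODE gene span given below. The PLA2G2A stretch ends 32 bases before its start. LYZ also differed between the lines, but the promoter sequences used held none for it. Capitals mark matches, on either strand, to TATAAA (the box that places the start in many promoters, found in 10.7% of 35114 windows of 250 bases before a start), TGANTCA (AP-1, 6.57%), TTTATG (CDX, 9.64%), TTGCNNAA (C/EBP, 9.05%), TTCNNNGAA (STAT, 6.57%), AGATAA (for factors of the GATA family, 9.17%) or the NF-κB pattern (1.73%), and no matches overlap.
LCN2, chr9:128149265-128149452: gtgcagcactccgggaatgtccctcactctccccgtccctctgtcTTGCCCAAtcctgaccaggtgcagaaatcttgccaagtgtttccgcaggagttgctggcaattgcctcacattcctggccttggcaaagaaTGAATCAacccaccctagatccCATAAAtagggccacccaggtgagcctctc
LCN15, chr9:136764519-136764768: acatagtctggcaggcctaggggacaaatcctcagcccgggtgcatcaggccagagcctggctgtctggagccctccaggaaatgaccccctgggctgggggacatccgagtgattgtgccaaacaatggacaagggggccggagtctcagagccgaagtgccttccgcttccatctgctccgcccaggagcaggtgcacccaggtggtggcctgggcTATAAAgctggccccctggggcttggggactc
PLA2G2A, chr1:19979691-19979909: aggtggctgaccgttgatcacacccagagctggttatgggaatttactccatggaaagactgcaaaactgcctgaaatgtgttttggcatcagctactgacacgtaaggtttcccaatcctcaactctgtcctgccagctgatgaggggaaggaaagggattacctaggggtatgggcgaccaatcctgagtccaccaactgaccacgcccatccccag
In the LCN2 stretch a C/EBP match starts 143 bases before the start, an AP-1 match 52 bases before it and a CDX match on the other strand 30 bases before it. The LCN15 stretch holds a TATAAA match 32 bases before the start, and the PLA2G2A stretch holds none of the 7 letter patterns. A match describes the letters only, and no binding was measured.

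All 8 genes are protein coding. In GRCh38, LYZ lies at chr12:69348381-69354234 on the plus strand, with 4 exons in its canonical transcript in GENCODE 44. Both lipocalins are on chromosome 9, LCN2 at chr9:128149071-128153453 on the plus strand and LCN15 at chr9:136759634-136766255 on the minus strand, each with 7 exons. PLA2G2A at chr1:19975431-19980416, with 5 exons, REG4 at chr1:119794017-119811580, with 6 exons, and PIGR at chr1:206928522-206946466, with 11 exons, are on the minus strand of chromosome 1. REG3A lies at chr2:79157003-79159753, with 6 exons, and DEFB1 at chr8:6870592-6877936, with 2 exons, both on the minus strand.

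The values are unique molecular identifiers (UMIs), 1 per captured RNA molecule, as deposited by the authors without normalization. A level is given as CPM, the UMIs of a gene per 1000000 UMIs of the cells named, and since only the 3′ end of each RNA is counted it does not scale with gene length. After the cell minimums and the removal of likely doublets, 4633, 4989 and 4850 cells were kept in control 1, control 2 and the LPS library, with medians of 5447, 4103 and 3573 UMIs. Pairs of libraries shared 9 to 11 barcodes and no identical column of counts. Each kept cell was assigned to a line from 395 HT29 and 754 Caco-2 signature genes, members left out, which gave 652, 941 and 787 HT29-like cells (14.1%, 18.9% and 16.2%) and 3925, 3964 and 3970 Caco-2-like cells. Of 12 markers of blood and stromal cells, MPO, TYROBP and MS4A1 were at 0 UMIs, and 5 had enough counts for the test between lines. CD68, a macrophage marker, was at 20.9 to 26.7 CPM in both lines. FCER1G, COL1A1, CD3E and PECAM1 were higher in Caco-2-like cells, at means of 11.6, 10.3, 3.18 and 2.1 CPM. Among all genes tested, 36.7% were higher in Caco-2-like cells.

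LYZ, LCN2 and LCN15 were genes of the HT29-like cells, PLA2G2A was a gene of the Caco-2-like cells, and DEFB1 and REG4 were found in both lines. REG3A was seen in 23 cells and PIGR in 9 cells of all 14472, so the culture held almost no RNA of the IgA receptor. Of the 6 members with enough counts for the test between lines, 3 were higher in HT29-like and 1 in Caco-2-like cells. The test was edgeR's quasi-likelihood test on 6 sums, 1 per line and library, at an adjusted p of 0.05. It called 70.2% of the 14017 genes tested, 33.6% higher in HT29-like and 36.7% higher in Caco-2-like cells, and 69% of the genes on neither signature list, so a call alone does not set the members apart from other genes. Among all genes tested, 4.49% were called and at least 8-fold higher in HT29-like cells, as LYZ, LCN2 and LCN15 were.

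**Figure D1:**
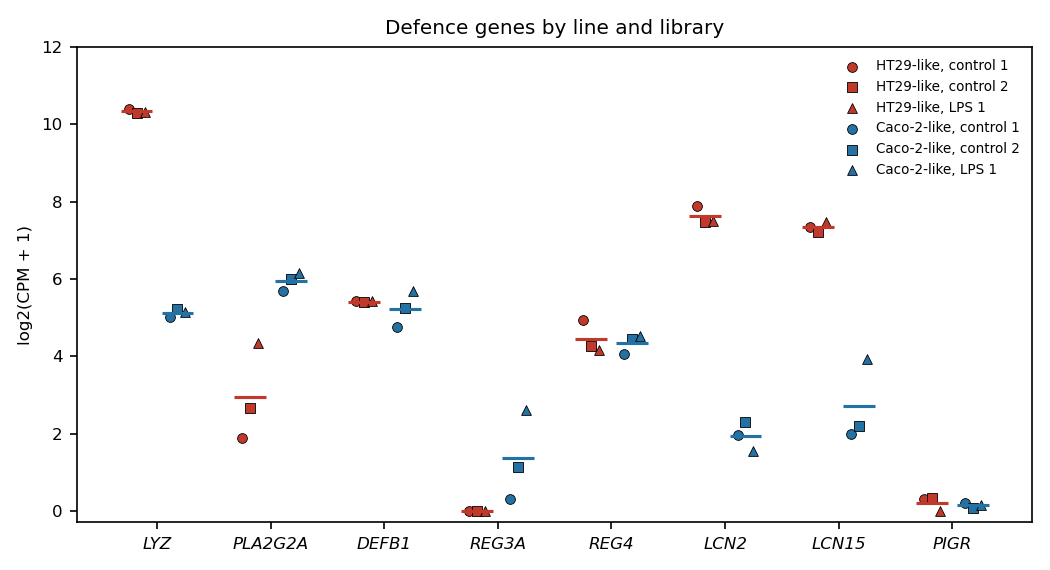
Level of the 8 genes as log2(CPM + 1) in HT29-like (red) and Caco-2-like cells (blue), with 1 symbol per library (circle, control 1; square, control 2; triangle, LPS) and a bar at the mean. LYZ, LCN2 and LCN15 stand apart between the lines in all 3 libraries, PLA2G2A is higher in Caco-2-like cells, and DEFB1 and REG4 overlap.

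In HT29-like cells LYZ was at 1337, 1264 and 1275 CPM in control 1, control 2 and the LPS library, and in Caco-2-like cells at 31.4, 36.6 and 34.1 CPM. No library of one line overlapped with the other. The difference was 5.18 ± 0.11 (log2, HT29-like minus Caco-2-like, SE; adjusted p = 4.79e-13, edgeR). At least 1 LYZ UMI was found in 85.3% of the 2380 HT29-like cells (exact 95% interval 83.8 to 86.7%) against 8.92% of the 11859 Caco-2-like cells. With every cell thinned to 2000 UMIs, so that depth is equal, these shares were 75.2%, 77.4% and 77.1% in HT29-like and 3.75%, 4.47% and 3.82% in Caco-2-like cells, after 0, 77 and 106 HT29-like and 0, 182 and 353 Caco-2-like cells with fewer UMIs were left out. HT29-like cells held 84.7%, 83.0% and 82.8% of all LYZ UMIs.

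LCN2 had the largest difference of the members tested. Its level was 237, 178 and 181 CPM in HT29-like cells and 2.88, 3.91 and 1.92 CPM in Caco-2-like cells, a difference of 6.03 ± 0.18 (log2, SE; adjusted p = 2.00e-12, edgeR). LCN15 was at 160, 149 and 177 CPM in HT29-like cells. In Caco-2-like cells LCN15 was at 3.0 and 3.61 CPM in the controls and at 14.3 CPM in the LPS library. Neither lipocalin overlapped between the lines, and the LCN15 difference was 4.73 ± 0.28 (log2, SE; adjusted p = 1.23e-09, edgeR), or 5.49 ± 0.17 without the LPS library.

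The low levels of these 3 genes in Caco-2-like cells were set beside those of HT29 markers in the same cells. Summed over 14 HT29 markers, the level in Caco-2-like cells was 2.06%, 4.31% and 4.99% of that in HT29-like cells, with medians over the markers of 1.16%, 2.24% and 1.86%. LYZ in Caco-2-like cells was at 2.35%, 2.89% and 2.68% of its HT29-like level and LCN2 at 1.21%, 2.2% and 1.06%. LYZ was above the marker median in all 3 libraries but above the summed level only in control 1. LCN2 was above the marker median only in control 1. Whether Caco-2-like cells made these RNAs was not tested. LCN15 was at 1.87% and 2.43% in the controls and at 8.09% in the LPS library.

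PLA2G2A went the other way, with 50.4, 63.4 and 70.8 CPM in Caco-2-like cells and 2.70, 5.29 and 19.1 CPM in HT29-like cells. The difference was -2.98 ± 0.28 (log2, HT29-like minus Caco-2-like, SE; adjusted p = 1.95e-07, edgeR), and -3.90 ± 0.25 without the LPS library. A single HT29-like cell of the LPS library held 49 of its 61 PLA2G2A UMIs, and without the top cell of each library the HT29-like levels were 2.22, 3.78 and 3.77 CPM. Beside this, 15 Caco-2 markers summed were at 6.0%, 5.51% and 8.02% of their own-line level in HT29-like cells, and PLA2G2A was at 5.37%, 8.34% and 27.0%. One of those markers, APOH, was as high in HT29-like as in Caco-2-like cells, at 93.4 to 108% of its own-line level.

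DEFB1 and REG4 did not pass the test between lines. DEFB1 was at 42.3, 41.0 and 41.7 CPM in HT29-like cells, an SD of 0.62 around a mean of 41.7, and at 25.9, 36.9 and 50.1 CPM in Caco-2-like cells. Its difference was 0.13 ± 0.15 (log2, SE; adjusted p = 0.472, edgeR). REG4 was at 29.5, 18.4 and 16.9 CPM in HT29-like cells and at 15.8, 20.8 and 22.0 CPM in Caco-2-like cells, a difference of 0.11 ± 0.19 (log2, SE; adjusted p = 0.633, edgeR). The lines overlapped for both genes, and without control 1 both differences turned negative, to -0.11 and -0.32, again without passing the test.

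Within HT29-like cells LYZ was the highest member and LCN2 and LCN15 followed, where the lowest LCN2 library (178 CPM) was close to the highest LCN15 library (177 CPM). DEFB1 came next, and the ranges of REG4 and PLA2G2A overlapped below it. In Caco-2-like cells PLA2G2A was the highest, and the ranges of DEFB1 and LYZ overlapped. How the UMIs spread over cells also differed. Of 17380 LYZ UMIs, 515 cells held 50% or more, whereas 50 cells held that share of the 2282 LCN15 UMIs, 84 cells that of the 3905 PLA2G2A UMIs and 404 cells that of the 2757 DEFB1 UMIs.

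**Figure D2:**
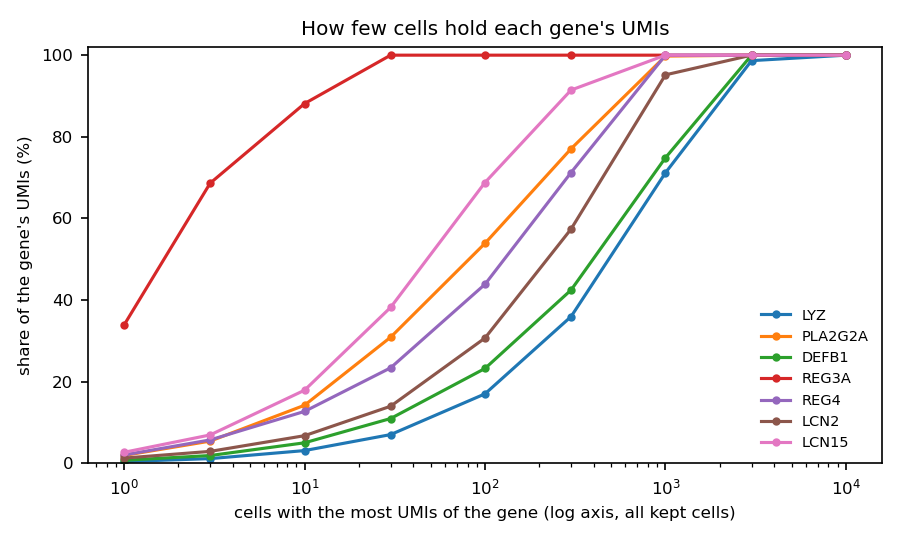
Share of each gene's UMIs (%) held by the cells with the most UMIs of that gene, in all kept cells, against the number of cells (log axis); PIGR, with 9 UMIs, is left out. REG3A reaches 100% within 23 cells, LCN15 and PLA2G2A rise sooner than LCN2, and LYZ and DEFB1 are spread over the most cells.

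Cells were clustered without the members to see which cells carried each gene, and 20 clusters were named from marker genes as intestinal stem cell-like (ISCLC), transit-amplifying-like (TALC), enterocyte-like (ECLC), goblet cell-like (GCLC), enteroendocrine cell-like (EECLC), undifferentiated HT29 (U-HT29) and fetal gene expressing cells (FGEC), or left unnamed. A cluster is called here by its class and 1 or 2 of its leading genes. The TALC name is weak for the cluster led by S100A9 and CKB. It had 5 TALC markers raised, but the mean over the TALC markers was -0.39 (log2, against the other cells). None of them was among its leading genes. Since clusters were cut from the same cells, the levels below are descriptions with no test, as mean ± SD over the 3 libraries.

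LYZ was high in all 4 U-HT29 clusters, which were 81.1% to 95.7% HT29-like. It was at 1599 ± 76.1 CPM in the cluster led by TM4SF4 and KLK10, at 1489 ± 178 in that with PYGB and AQP1 among its leading genes and at 1445 ± 87.6 in that led by NUPR1 and CA9, and these ranges overlapped. The cluster led by RARRES2 and SPRR1B was lower at 587 ± 65.3 CPM and overlapped with GCLC at 592 ± 27.6 CPM. GCLC, the goblet cell-like cells led by FCGBP and MUC2, were 86.0% HT29-like.

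LCN2 and LCN15 were highest in different U-HT29 clusters. LCN2 was at 521, 337 and 305 CPM in the RARRES2 cluster, above every value of the other 3, which averaged 181 ± 8.7 (TM4SF4), 175 ± 22.6 (PYGB) and 134 ± 13.7 CPM (NUPR1). LCN15 was at 370, 318 and 428 CPM in the NUPR1 cluster and at 4.22, 1.31 and 1.56 CPM in the RARRES2 cluster. The NUPR1 cluster held 6.45% of the kept cells and 75.7% of all LCN15 UMIs. DEFB1 was low where LCN15 was high, at 18.5 CPM in the NUPR1 cluster, against 77.3 ± 13.2 CPM in the RARRES2 and 65.9 ± 6.8 CPM in the TM4SF4 cluster. REG4 was also highest of the 4 in the NUPR1 cluster, at 34.0 ± 13.5 CPM against 0.35 to 4.55 CPM in the other 3, whereas LCN15 was at 89.8 ± 87.5 CPM in the PYGB and 17.6 ± 8.5 CPM in the TM4SF4 cluster.

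**Figure D3:**
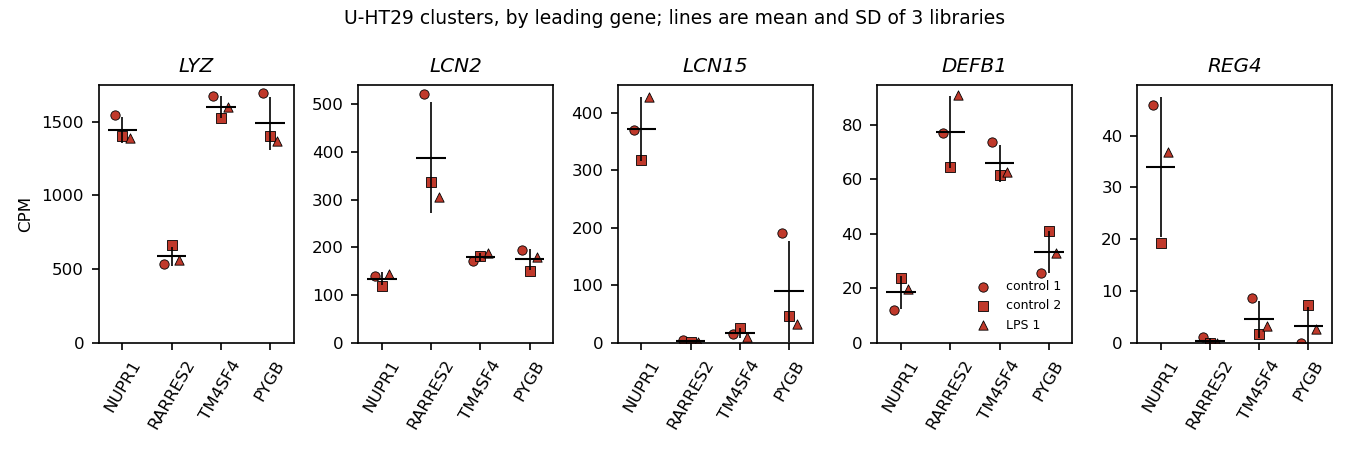
CPM of LYZ, LCN2, LCN15, DEFB1 and REG4 in the 4 U-HT29 clusters, named by 1 leading gene, with 1 symbol per library and lines at the mean and SD of 3 libraries. LCN15 and REG4 are highest in the NUPR1 cluster, and LCN2 is highest and LYZ lowest in the RARRES2 cluster.

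In HT29-like cells thinned to 2000 UMIs, LCN2 and LCN15 were also seen in different cells. LCN15 was detected in 2.3%, 4.0% and 3.61% of the 174, 225 and 166 cells with an LCN2 UMI, and in 13.4%, 12.1% and 14.4% of the cells without one. DEFB1 was detected in 14.4%, 9.78% and 10.8% of the cells with LCN2 and in 5.65%, 7.51% and 5.63% of those without. In each of the 3 libraries LCN15 was rarer, and DEFB1 more frequent, in cells with LCN2. LYZ was detected in 82.4%, 89.5% and 90.0% of the cells with LCN15 and in 74.3%, 76.1% and 75.4% of those without. REG4 was too rare for a pattern with LCN15, with both detected in 1 cell of control 1 and 2 cells of the LPS library. These are shares of cells within a library, and cells are not replicates of a condition.

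**Figure D4:**
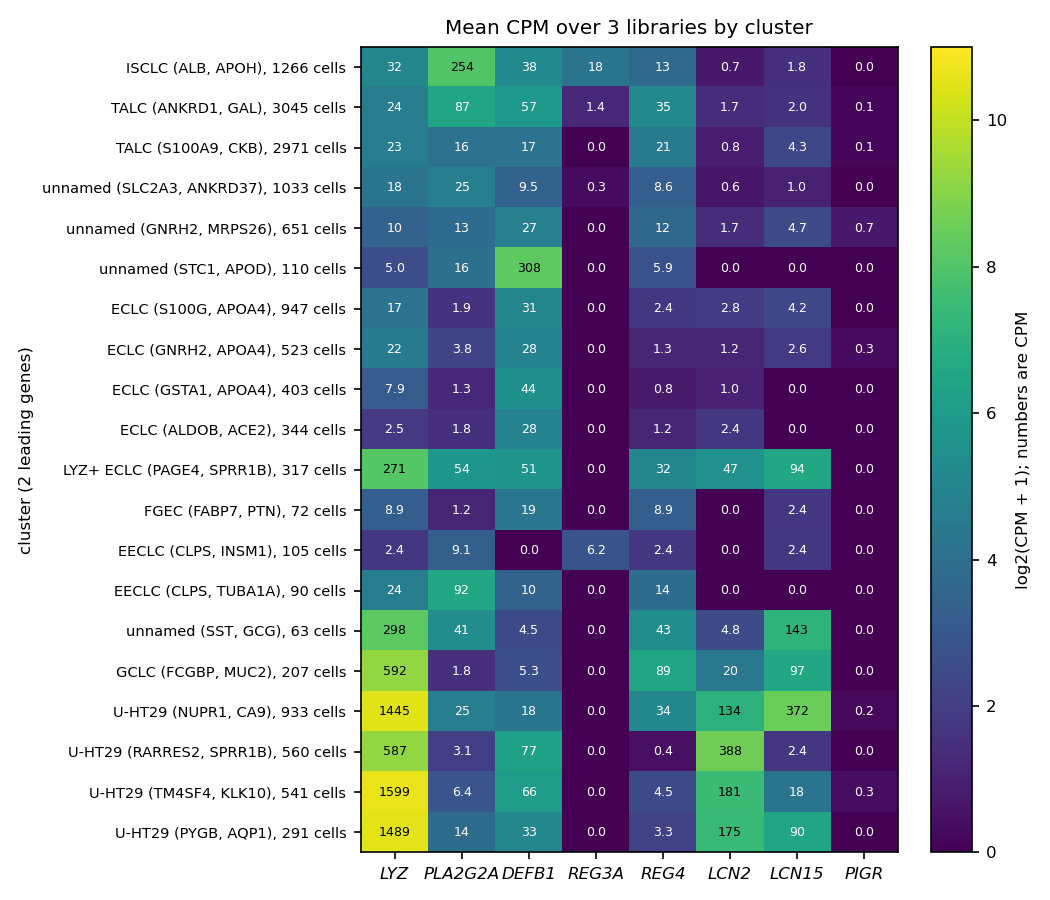
Mean CPM over 3 libraries of the 8 genes (columns) in 20 clusters (rows, with class, 2 leading genes and number of cells); colour is log2(CPM + 1) and the number in each cell is CPM. LYZ and LCN2 are high in all 4 U-HT29 rows and LCN15 mainly in the NUPR1 row, PLA2G2A is highest in ISCLC, REG3A is highest there through the LPS library, and DEFB1 is highest in the unnamed cluster led by STC1 and APOD.

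PLA2G2A was highest in ISCLC, a cluster led by ALB, APOH and AFP. It was at 181, 258 and 324 CPM there, above all libraries of the other clusters, and at 89.3, 76.1 and 94.6 CPM in the TALC cluster led by ANKRD1 and GAL. These 2 clusters held 8.75% and 21.0% of the kept cells and 40.8% and 40.2% of the PLA2G2A UMIs. In ISCLC 20.7% of the cells had a PLA2G2A UMI, with up to 76 in a cell, so most cells of the cluster had none detected at this depth. The share was 22.7% in the LYZ+ ECLC cluster described below, at a level of 53.5 ± 31.0 CPM. Of the 2 EECLC clusters, 1 was at 91.9 ± 42.2 CPM, from 31 UMIs, and the other at 9.1 CPM. When clusters were cut at a resolution of 0.8 or with doublets kept, the highest PLA2G2A cluster was a smaller one led by OLFML3 and FGG, at 461 and 465 CPM, and the cells led by ALB and AFP formed a cluster of their own. ECLC clusters were at 1.3 to 3.8 CPM.

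REG3A, like PLA2G2A a gene of Paneth cells, was found mostly in the same 2 clusters. Of its 118 UMIs, 90 were in 10 ISCLC cells and 26 in 11 cells of the ANKRD1 TALC cluster. This order rested on the LPS library, with 84 UMIs in ISCLC and 1 in the TALC cluster. The controls held 1 and 5 UMIs in ISCLC and 6 and 19 in the TALC cluster, where their levels of 0.86 and 3.1 CPM were above the 0.351 and 2.40 CPM of ISCLC. A PLA2G2A UMI was present in 13 of the 23 cells with REG3A. It was present in 20.7% of the ISCLC cells, 13.7% of the ANKRD1 TALC cells and 8.03% of all Caco-2-like cells. These shares were not matched for depth, and whether the 2 genes share cells beyond these clusters was not tested. By library, 7, 7 and 9 cells had a REG3A UMI. In the LPS library 2 ISCLC cells held 40 and 32 UMIs. No HT29-like cell of 2380 had one, which allows a share of cells with a UMI of up to 0.126% and does not limit the cells that express it below detection. The Caco-2-like level of REG3A was 7.0 times a floor of 3 UMIs over all HT29-like cells, and 2.66 times without those 2 cells. That floor takes UMIs as independent, whereas a cell held up to 40, so these ratios set no lower limit on the difference. By cells, 0.177% of the Caco-2-like cells had a REG3A UMI (exact interval 0.110 to 0.271%). The interval includes the 0.126% allowed in HT29-like cells. Overlap of such limits does not show that the shares are alike, and a difference in these shares was not tested. PIGR had 9 UMIs in 9 cells, 2 of them HT29-like and 7 Caco-2-like, and no cluster had more than 2.

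DEFB1 was highest in a small unnamed cluster led by STC1, APOD and TMEM52B, of 15, 39 and 56 cells and with no HT29-like cell. Its level there was 362, 299 and 262 CPM, from 28, 60 and 62 UMIs, against 77.3 CPM in the next highest cluster, with no overlap. A DEFB1 UMI was found in 46.4% of its cells. The cluster held 0.760% of the kept cells and 5.44% of the DEFB1 UMIs, while the ANKRD1 TALC cluster held 21.0% of the cells and 36.5% of the UMIs. Caco-2 markers in it were at 99.5%, 101% and 55.1% of the Caco-2-like level and HT29 markers at 0 to 0.506% of the HT29-like level. The cluster was not separated when doublets were kept or when cells were log-normalized without integration, where the highest DEFB1 cluster was at 75.3 and 74.9 CPM.

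REG4 was highest on average in GCLC, at 111, 130 and 25.3 CPM, from 33, 49 and 6 UMIs, and its range there overlapped with the next clusters. One GCLC cell held 30 of them. The ANKRD1 TALC cluster had a steadier level of 37.8, 31.5 and 34.7 CPM. It held 21.0% of the kept cells and 43.4% of all REG4 UMIs. REG4 is known from enteroendocrine and goblet cells of the gut, and the 2 EECLC clusters were at 2.4 and 13.8 CPM. The unnamed cluster led by the hormone genes SST and GCG was at 115, 0 and 13.6 CPM, from 8, 0 and 1 UMIs, and so ranked next to GCLC by its mean of 42.8 ± 62.7 CPM.

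A cluster of mostly Caco-2-like cells carried several of these genes at once. The LYZ+ ECLC cluster, named from PAGE4, SPRR1B, S100A4 and C1orf56, was 2.84% HT29-like and held 78, 199 and 40 cells. Its LYZ level was 224, 321 and 268 CPM, above every other cluster made mostly of Caco-2-like cells, and its LCN2 level was 46.8 ± 6.8 CPM. LCN15 was at 15.8 and 34.5 CPM there in the controls and at 232 CPM in the LPS library, from 78 UMIs. The cells of this cluster had medians of 11787, 5381 and 8349 UMIs and doublet scores of 0.122, 0.0818 and 0.180, against 0.0641, 0.0640 and 0.0722 in all kept cells. HT29 markers in it were at 17.7%, 28.1% and 33.1% of the HT29-like level and Caco-2 markers at 94.6% to 98.1% of the Caco-2-like level, and the part of cells captured together in these values was not tested. Without this cluster LYZ in Caco-2-like cells was at 25.4, 21.7 and 30.5 CPM, and the difference between lines was 5.59 ± 0.14 for LYZ and 6.82 ± 0.18 for LCN2 (log2, SE; adjusted p = 1.03e-12 for both, edgeR).

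The genes with the most similar pattern were taken by Pearson's r of log2(CPM + 10) over 27 points, 9 classes or unnamed clusters in each of 3 libraries, which share their libraries and so are not independent. All U-HT29 clusters entered as 1 class, and so did the TALC clusters, so differences among the clusters of a class are not part of r. Only U-HT29 and GCLC were mostly HT29-like, so r does not separate a shared pattern from the difference between lines. How many genes reach such values was not counted. LYZ was most like TMEM54 (r = 0.984), VSIG2 (0.980) and NME3 (0.978). LCN2 was most like KLK6 (0.987), AC008397.1 (0.980) and KLK10 (0.978), and LCN15 most like PPP1R1B (0.964), PYCARD (0.963) and NTSR1 (0.961). PLA2G2A was most like COL2A1 (0.917), IRX3 (0.903) and ZCCHC9 (0.859). The likeness was lower for DEFB1, with BLVRB (0.871), STEAP1 (0.819) and CKLF (0.742), and for REG4, with PYCR1 (0.809), SMAGP (0.784) and DUS1L (0.765). For REG3A it was at most 0.605, with ORM1, GLUD1 and COL2A1, and rested mainly on ISCLC of the LPS library, at 50.3 CPM. PIGR was too low to rank.

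Other genes of the same functions showed how much of the antimicrobial repertoire was present. Of 38 further antimicrobial effectors, 17 were tested. Of these, 7 were higher in HT29-like cells, 8 were higher in Caco-2-like cells and 2 did not pass. The median difference was -1.10 against -0.06 over all genes tested (log2). Among all genes tested, 33.6% were higher in HT29-like and 36.7% in Caco-2-like cells. A call alone therefore does not set these genes apart. LGALS4, a galectin, was at 2080, 2089 and 1842 CPM in HT29-like and 28.1, 52.4 and 46.4 CPM in Caco-2-like cells. The protease inhibitors WFDC2, PI3 and SLPI were also higher in HT29-like cells, by 3.99 ± 0.21, 2.70 ± 0.24 and 3.98 ± 0.18 (log2, SE), as was the trypsinogen PRSS2, by 3.83 ± 0.37. LGALS3, ZG16, a goblet cell lectin, and ANG, a ribonuclease, were higher in Caco-2-like cells, with differences of -1.65 ± 0.10, -4.09 ± 0.15 and -1.10 ± 0.12. The Paneth cell defensins DEFA5 and DEFA6 had 4 and 5 UMIs in all kept cells, and REG1B, DEFB4A and RNASE7 had 0.

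Of 7 genes of antibody transport and recruitment, 3 were tested and all 3, FCGRT, CCL28 and CCL20, were higher in Caco-2-like cells. Among all genes tested, 36.7% were higher in Caco-2-like and 33.6% in HT29-like cells. FCGRT, the neonatal Fc receptor, which binds IgG and not IgA, was at 301, 260 and 271 CPM in Caco-2-like cells. It was at 144, 144 and 134 CPM in HT29-like cells. JCHAIN, the joining chain of polymeric IgA that plasma cells make, was at 0 UMIs. Of 28 genes of sensing and induction, 22 were tested. Of these, 12 were higher in HT29-like cells and 3 higher in Caco-2-like cells, beside the same shares of all genes. Their median was 0.37 against -0.06 over all genes tested (log2). TLR4, the receptor for LPS, and its partner LY96 had 10 and 7 UMIs in all kept cells, while CD14, which hands LPS to them, was at 20.4, 11.3 and 10.0 CPM in HT29-like and 2.17, 3.01 and 2.99 CPM in Caco-2-like cells.

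The LPS library was compared with the controls as values only, since 1 library allows no test. A gene was called when the LPS library was at least 1.5 times above both controls or below both by that factor, among genes at 10 CPM or more in 1 library. In all kept cells none of the 6 members at that level was called, as against 0.212% of 8490 genes. LYZ was at 215, 248 and 241 CPM, LCN2 at 35.2, 33.7 and 33.1 CPM and REG4 at 17.6, 20.7 and 21.1 CPM in control 1, control 2 and the LPS library. PLA2G2A was at 44.2, 53.3 and 63.0 CPM, LCN15 at 26.3, 27.3 and 40.7 CPM and DEFB1 at 28.4, 37.7 and 48.6 CPM, with the LPS library highest for these 3. It was also highest for REG4, at 1.02 times control 2, and for REG3A, at 0.234, 0.983 and 4.27 CPM. Of the 87 REG3A UMIs of the LPS library, 72 were in 2 cells. Over all genes at 10 CPM or more in 1 library, the LPS library was higher by a median of 0.071 in log2(CPM + 1). How many of those genes were highest in the LPS library was not counted.

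DEFB1 in Caco-2-like cells was at 50.1 CPM in the LPS library (exact Poisson 95% interval 46.8 to 53.6), above 36.9 (34.3 to 39.7) in control 2 and 25.9 (24.0 to 28.0) in control 1. The intervals cover counting error only. They do not overlap, yet the 2 controls also differed from each other, and the LPS library was 1.36 times the nearer control. Without control 2 DEFB1 would be called, at 1.93 times control 1. The LPS library was above both controls in 8 of the 15 clusters with at least 20 DEFB1 UMIs and below both in 2. These clusters divide the cells of the same 3 libraries and so are not separate observations. Such a count was not made over all genes. In the ANKRD1 TALC cluster DEFB1 was at 37.1 and 55.4 CPM in the controls and 79.9 CPM with LPS, and in HT29-like cells the 3 libraries were within 41.0 to 42.3 CPM.

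**Figure D5:**
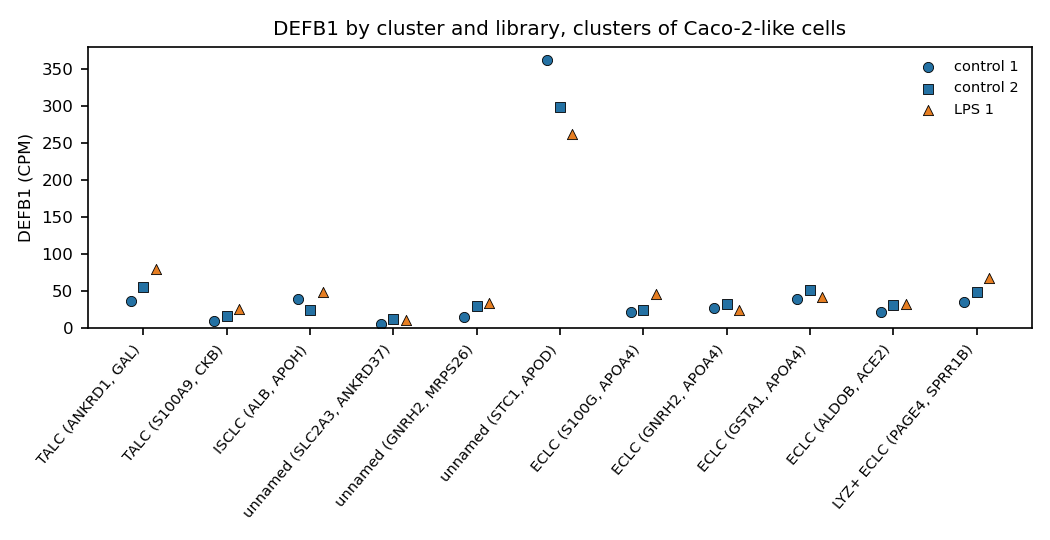
CPM of DEFB1 by library (circle, control 1; square, control 2; orange triangle, LPS) in the 11 clusters made mostly of Caco-2-like cells with at least 20 DEFB1 UMIs. The LPS library is above both controls in the ANKRD1 TALC cluster (79.9 CPM against 37.1 and 55.4) and below both in the STC1 cluster (262 CPM against 362 and 299).

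By line, 1 of 6 members was called in HT29-like cells, PLA2G2A, higher with LPS, where 2% of 8502 genes were called, and 1 of 5 in Caco-2-like cells, LCN15, higher with LPS, where 0.18% of 8329 genes were called. The PLA2G2A call was lost without the top cell of each library (1.26 times the mean of the controls) and with lines split by markers (1.00 times). LCN15 in Caco-2-like cells was 4.33 times the mean of the controls, and 1 cell of the LPS library, which held 62 of 239 UMIs, clustered with U-HT29. LCN15 was still called without the top cell of each library (3.82 times), but not with lines split by markers (2.06 times). Without the Caco-2-like cells in U-HT29 clusters it was at 3.0, 3.63 and 8.02 CPM. That is 2.42 times the mean of the controls, but under the 10 CPM needed for a call. Without those cells and the LYZ+ ECLC cluster LCN15 was at 2.49, 2.02 and 3.62 CPM, also under that level. In HT29-like cells LCN15 was at 177 CPM with LPS, 1.10 times the higher control, and LYZ and LCN2 were between the controls.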

How the data were processed

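Single-cell RNA was captured with the 10x Genomics 3′ assay from 2 control co-cultures and 1 LPS co-culture. The authors deposited UMI counts per gene and barcode from Cell Ranger on GRCh38 (3.1.0 per the file headers), with 5811, 6495 and 6838 barcodes and 33893707, 27934953 and 24185467 UMIs, and without normalization. Free RNA of lysed cells enters every droplet, so a few UMIs of a gene do not show that a cell made it.

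Cells were kept at the minimums of the study (control 2's for the LPS library) and at most 20% mitochondrial UMIs. Scrublet (scanpy 1.11.5) marked 0, 0 and 1 cells, so the 6% with the highest scores were removed. Lines were assigned by a mixture of 2 Gaussians on the ratio of UMIs on the bulk signature lists of both lines in the study's supplement, at a posterior of 0.95, leaving 56, 84 and 93 cells unassigned. A split by line markers gave the same line for 98.4% to 98.7% of the cells that both splits assigned. Libraries were normalized with sctransform 0.4.2, integrated in Seurat 5.3.0 and clustered (Leiden, resolution 0.5). The naming rule was set after clusters were seen, and a cluster led by hormone genes was left unnamed.

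Sums per line and library were tested with edgeR 4.0.16 (TMM, filterByExpr, condition and line as terms, 3 residual degrees of freedom), and p-values were adjusted over all genes by Benjamini-Hochberg. The SE given with an edgeR difference was derived from the test, as the size of the log2 difference divided by the square root of the F statistic. Whether the 3 inserts were seeded separately is not stated, so p-values measure the spread among the sums of these inserts only. Both lines of a library came from the same co-culture, and the main test does not use this pairing. The alternative with the library as a block does. The fit was also run on simulated counts with 200 of 13853 genes changed. In the data 70.2% of the genes tested were called, so that run does not measure the error of these calls. LPS against control and levels by cluster had no test. Shares have exact Clopper-Pearson and sums exact Poisson intervals at 95%, for counting error only, and a count of 0 allows up to 3 UMIs or cells. The 8 members were all named, and for each the 3 genes with the most similar pattern. The members, lists and tests were chosen with earlier results of these data known, and the lists support nothing by themselves. Alternatives covered scaling, filters, DESeq2 1.42.0, the library as a block, doublets, barcodes, the split, resolution, integration and each library left out.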

Additional observations from a re-analysis of the deposited data

Results flagged for a closer look

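The LPS library lay outside both controls in opposite directions in the 2 lines for REG4. It was at 0.707 times the mean of the controls in HT29-like cells, from 54 UMIs, and at 1.20 times in Caco-2-like cells, from 367 UMIs. The difference was not tested. The 2 controls differed from each other by more, with 29.5 and 18.4 CPM in HT29-like cells, and 6 cells held 50% or more of the 247 REG4 UMIs of that line.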

How the results depend on the processing

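Between lines, 9845 of 14017 genes were called, and 8811 to 9673 when a library was left out. LYZ, LCN2, LCN15 and PLA2G2A kept their direction and their call under scaling by size factors, no filter, DESeq2, the library as a replicate block (10203 calls), doublets kept, every deposited barcode, a marker-based split and a posterior of 0.5. When the line mixture was refitted on every deposited barcode, a setting chosen after seeing the data, 224 genes were called, PLA2G2A was no longer called (-0.51, log2) and DEFB1 was at -0.0364, and the cause was not tested. DEFB1 and REG4, not called in any of these settings, ranged from -0.11 to 0.35 and from -0.32 to 0.33 (log2) with a library left out, and REG4 was at -0.0548 under the marker-based split. REG3A had too few counts for the main test. With no filter it entered at -7.59 (log2) and was called, and without control 1 it was at -8.03. With the refitted mixture REG3A was at 0.58 and not called. In the main setting HT29-like cells held 0 REG3A UMIs, and 2 cells held 72 of the 116 in Caco-2-like cells.

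With 1 control left out, 35 to 248 genes were called for LPS in all kept cells (18 with both), 526 to 706 in HT29-like cells (170) and 46 to 274 in Caco-2-like cells (15), as fewer samples must be passed. At a fold of 2 the counts were 8, 22 and 3, and the marker-based split gave 8 in Caco-2-like cells. In all kept cells LCN15 was called with doublets kept and with every barcode (1.63 and 1.60 times the mean of the controls). Without control 2 LCN15 (1.55) and DEFB1 (1.71) were called there, DEFB1 in Caco-2-like cells (1.93, higher) and REG4 in HT29-like cells (lower). Clusters were fixed when a library was left out, and then all 6 members with at least 200 UMIs kept the cluster of their highest level. With cells clustered anew, a resolution of 0.8 kept 5 of 6 (LYZ moved), the clustering with doublets left in kept 4 of 6 (LYZ and DEFB1 moved) and log normalization without integration 3 of 6 (LYZ, DEFB1 and LCN2 moved). For LYZ the leading clusters overlapped in level. No paired analysis was possible for LPS against control because there is 1 LPS library and no label pairs it with a control. Median depths of 3573 to 5447 UMIs per cell limit which cells show a low gene.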
